A study of Mus musculus with 36 samples.

Results

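The comparison described here asked whether the diet of the dam could still be read in the liver of adult sons that all ate the same high fat diet after weaning. It set 10 HF_HF mice against 8 LF_HF mice, 18 of the 36 liver samples of the series, and took in every gene on the array. In a group name the first part is what the dam ate and the second what the son ate once weaned (HF, high fat, or LF, low fat). All 18 mice were males of the C57BL/6J strain with no engineered allele, were weaned onto the HF diet and were killed at 9 weeks of age, so the LF_HF controls ate HF too. The HF diet was rich in coconut oil and low in carbohydrate and the LF diet the reverse, so effects of fat and of carbohydrate cannot be told apart. Dams ate their diet from well before mating until weaning, and the sires shared it while mating, so exposures of the sperm, in the womb and through the milk cannot be told apart either. The members were all samples that the labels give these diets.

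Pups of a breeding cage shared their dam diet, and a cage held a pair of females, so the cage rather than the mouse was the unit that received the maternal diet. The HF_HF mice came from 4 birth cages (cage 10 with 1 mouse, and cages 20, 21 and 23 with 3 mice each) and the LF_HF mice from 4 others (cages 4 and 11 with 2 mice each, cage 9 with 3 and cage 14 with 1). Differences were therefore tested with limma, with the cage as a random block, over the 12289 probes that were bright enough, at a false discovery rate of 5%. The same test was run with no cage term and on 1 mean per cage. The correlation of mice of 1 cage was 0.0769. It was 1 value estimated over all probes and applied to each, so it does not describe single genes, and cages can differ more for some.

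The liver builds fatty acids and cholesterol from acetyl-CoA when carbohydrate is plentiful and burns fatty acids in mitochondria and peroxisomes when fat is. Transcription factors of the SREBP family switch on the enzymes of fatty acid and sterol synthesis, PPAR alpha switches on those of fatty acid oxidation, and insulin, growth hormone and the circadian clock act on both programmes. The diet of a dam can in principle leave a lasting mark on any of them, since the liver of the pup matures around birth and weaning.

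Each mouse gave 1 array, and the deposited values were intensities that the authors had quantile-normalised, so precision was limited by the number of mice and cages. The probes kept represent 8538 genes, and 4655 of them (54.5%) lay below 0 in HF_HF relative to LF_HF, with a median log2 difference of -0.01. Of the 10 hepatocyte markers on the array 9 were kept. Apoa1, Ttr, Ahsg, Cyp2e1 and Trf, products of hepatocytes, were among the brightest probes in all 18 mice (lowest value 19803, for Ttr). The probes of Alb (albumin, medians 169 in HF_HF and 197 in LF_HF), Fgb (medians 83.8 and 92.3) and Tat (not kept) were dim in both groups. Each array's correlation with the 17 others had a median between 0.984 and 0.991. Nothing in the labels says that tissue was collected or arrays were run in batches, so batches of that kind could not be examined.

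Pups of HF dams were heavier at 3 weeks, the age of weaning. The lowest, median and highest HF_HF pups weighed 9.38, 11.6 and 13.4 g, against 8.04, 9.08 and 11.1 g for LF_HF pups. The groups overlapped, and the means of 11.6 g ± 1.25 (SD, n = 10) and 9.25 g ± 0.961 (SD, n = 8) differed by 2.36 g (two-sided exact permutation p = 6.86e-04, adjusted p = 0.00343 over 5 measures). Cage means did not overlap, at 10.4 to 13.0 g in the HF_HF cages and 8.53 to 10.2 g in the LF_HF cages, with an exact permutation p of 0.0286 over 4 against 4 cages, the smallest these numbers allow (adjusted p = 0.143). A later weight, whose age the labels do not settle, averaged 30.5 g ± 1.68 (SD, n = 10) in HF_HF and 30.1 g ± 2.05 (SD, n = 8) in LF_HF (exact permutation p = 0.657). Blood glucose averaged 188.5 mg/dl ± 42.8 (SD, n = 10) in HF_HF and 223.5 mg/dl ± 32.8 (SD, n = 8) in LF_HF (exact permutation p = 0.0777, adjusted p = 0.194), and length and body mass index passed no test either (adjusted p = 1 and 0.656, n = 8 each).

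With the cage as a block, 4 probes fell in HF_HF livers, 0.0325% of those tested, and none rose (0%). They belonged to Tuft1, Aacs, Flcn and Chrna4. At an unadjusted p under 0.05, 708 probes (5.76%) were lower and 409 (3.33%) higher. On 1 mean per cage no probe passed in either direction (0% lower and 0% higher, lowest adjusted p = 0.519), while 764 had an unadjusted p under 0.05. Intensities are given below as the lowest, the median and the highest mouse of a group, and differences as log2 of HF_HF over LF_HF ± SE.

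Tuft1 encodes tuftelin, first known from tooth enamel and expressed in many other tissues. Its intensity was 263, 295 and 363 in HF_HF livers, against 379, 438 and 486 in LF_HF livers, and no HF_HF mouse reached the lowest LF_HF mouse. It fell by 0.52 ± 0.07, to 0.697 of the level in LF_HF (adjusted p = 0.00282). By cage, Tuft1 averaged 284, 299, 297 and 313 in HF_HF cages 10, 20, 21 and 23, against 465, 430.0, 431 and 379 in LF_HF cages 4, 9, 11 and 14 (exact permutation p = 0.0286 on cage means). All 4 HF_HF cages lay below all 4 LF_HF cages, and the mouse of cage 14 was the lowest of LF_HF.

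Aacs encodes acetoacetyl-CoA synthetase, which in the cytosol turns the ketone body acetoacetate into a building block for cholesterol and fatty acids. It had 585, 1019.9 and 1278 in HF_HF and 1397, 1594 and 2110 in LF_HF livers, again without overlap, a difference of -0.81 ± 0.15 (adjusted p = 0.0467). Its cage means were 585, 995, 869 and 1109.6 in HF_HF, against 1509, 1671, 1847 and 1397 in LF_HF (exact permutation p = 0.0286). The single mouse of cage 10 was the lowest of all for Aacs.

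Flcn encodes folliculin, which forms a complex with its partner Fnip1 on lysosomes and takes part in sensing amino acids and in the control of the factors TFEB and TFE3. The intensity of Flcn was 521, 595 and 640.5 in HF_HF against 670.2, 783 and 863 in LF_HF, a difference of -0.37 ± 0.06 (adjusted p = 0.0467, and exact permutation p = 0.0286 on cage means). All 10 HF_HF mice lay below all 8 LF_HF mice. A second, dimmer Flcn probe differed by -0.20 ± 0.05 (adjusted p = 0.144).

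Chrna4 encodes the alpha 4 subunit of the nicotinic acetylcholine receptor, best known from neurons. Its probe was dim, at 61.3, 83 and 145 in HF_HF against 110.4, 165 and 219.7 in LF_HF, and -0.89 ± 0.16 was the largest difference of the 4 (adjusted p = 0.0467). Here the groups overlapped: 8 of 10 HF_HF mice lay below the lowest LF_HF mouse, which was the single mouse of cage 14 at 110.4. Its cage means gave an exact permutation p of 0.0571, since cage 20 of HF_HF reached 116. A second Chrna4 probe differed by -0.77 (adjusted p = 0.0620).

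These calls rested on the cages as they were. The SE of Tuft1, Aacs, Flcn and Chrna4 was 0.071, 0.145, 0.064 and 0.161 with the block. On cage means it was larger, at 0.078, 0.175, 0.084 and 0.169. Leaving out cage 9 of LF_HF left no probe past 5%, and leaving out cage 4 or cage 11 left 1, that of Tuft1. Over 26 fits with 1 mouse or 1 cage left out, Tuft1 differed by -0.55 to -0.48 and passed in 25. In these fits Aacs and Flcn passed in 10 each and Chrna4 in 9. A mouse alone in its cage is counted in them both as a mouse and as a cage. With the weight at 3 weeks, itself higher in HF_HF, as a covariate no probe passed, and Tuft1 differed by -0.46 ± 0.10 (adjusted p = 0.694).

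**Figure D1:**
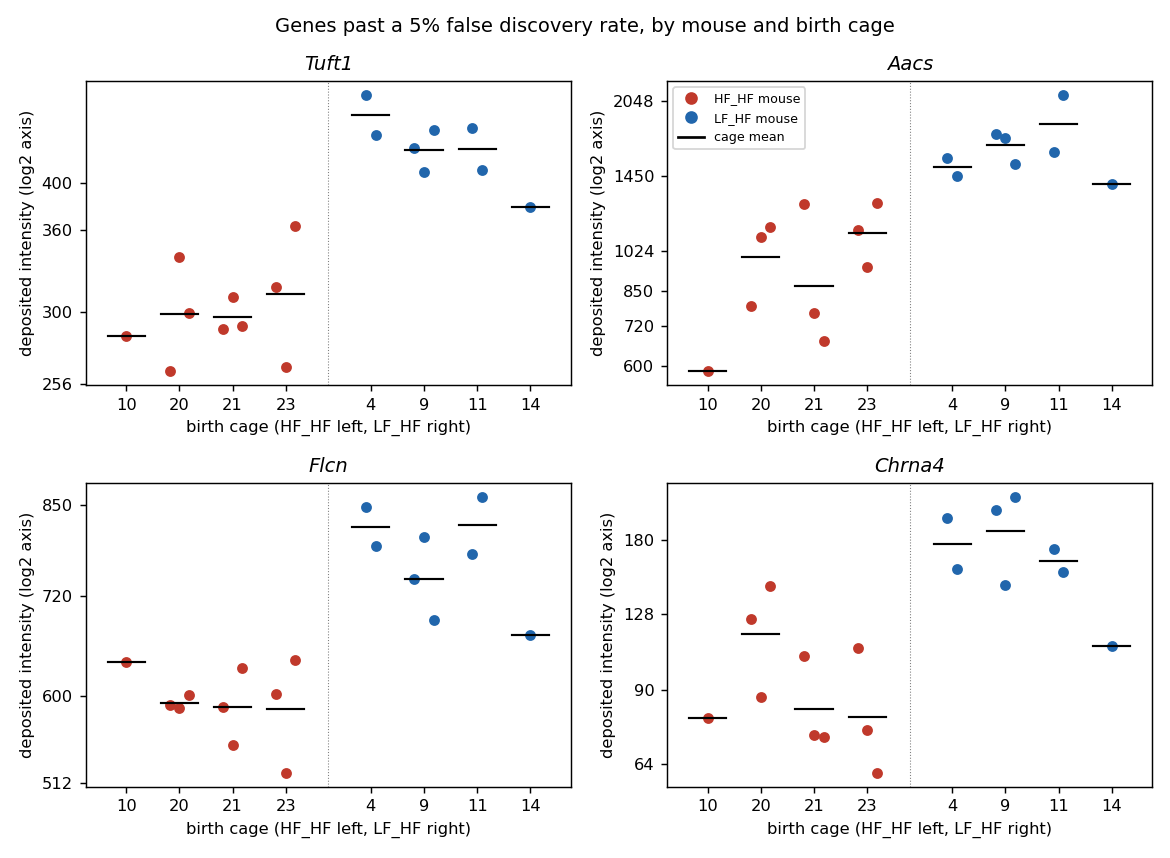
Deposited intensity (log2 axis) of the 4 genes past a 5% false discovery rate, with 1 point per mouse, birth cages along the horizontal axis (the HF_HF cages left of the LF_HF cages) and a bar at the geometric mean of each cage. For Tuft1, Aacs and Flcn all 10 HF_HF mice lie below all 8 LF_HF mice, and for Chrna4 the mouse of cage 14 lies among the HF_HF mice.

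Such a full separation of the mice was rare. Of 12289 probes, 7 (0.057%) had all 10 HF_HF mice below all 8 LF_HF mice and 1 (0.00814%) had them all above. With cage means, 309 probes (2.51%) had all 4 HF_HF cages below all 4 LF_HF cages and 148 (1.2%) had them above. Without the single mice of cages 10 and 14 these counts were 1017 and 733, as 3 cages a group separate more often by construction.

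With no cage term, the number of probes past 5% was 33, with 24 lower (0.195%) and 9 higher (0.0732%) in HF_HF. They represent 21 genes lower and 6 higher, and 2 probes have no symbol here. Their folds lay between 1.17 and 2.31, with a median of 1.36. The 4 probes named above were among them, and for the other 29 the adjusted p with the cage as a block lay between 0.052 and 0.0933. All 33 had an unadjusted p under 0.05 on cage means, 19 had cage means that did not overlap and 5 had mice that did not overlap. Over all 12289 probes, 764 had such a p and 3.72% had cage means that did not overlap. The 33 were selected on the same mice, so these counts follow largely from the selection and are no separate support. Each gene in the next paragraphs whose test is said to pass with no cage term did not pass with the block.

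Among those lower in HF_HF, Cish had the largest difference. It encodes a suppressor of cytokine signalling that STAT5 induces downstream of growth hormone. Cish stood at 196, 273 and 656 in HF_HF, against 324, 712 and 1259 in LF_HF, a difference of -1.19 ± 0.28 (adjusted p = 0.0486 with no cage term and 0.0933 with the block). The groups overlapped, with the mouse of cage 14 lowest among LF_HF. Aqp8, a water channel of hepatocytes, had 327, 432 and 875 in HF_HF against 656, 777 and 1262 in LF_HF, a difference of -0.85 ± 0.19 (adjusted p = 0.0369 with no cage term), and its cage means did not overlap. Rdh11, a retinol dehydrogenase, differed by -0.55 ± 0.12, Slc17a4, a phosphate and urate transporter, by -0.49 ± 0.11, and Zfp655, a zinc finger protein, by -0.48 ± 0.09 (adjusted p = 0.0347, 0.0458 and 0.0283 with no cage term).

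The 6 genes higher in HF_HF included a carnitine transporter, a clock output and a growth factor. Slc22a5, which carries carnitine into cells for fatty acid oxidation, had 460.3, 549.5 and 655 in HF_HF and 378, 425 and 536 in LF_HF, a difference of 0.37 ± 0.08 (adjusted p = 0.044 with no cage term). Fgf1, a fibroblast growth factor, had 827, 989 and 1219 in HF_HF against 463, 684 and 1109.6 in LF_HF, a difference of 0.55 ± 0.12 (adjusted p = 0.0467). A second, dimmer Fgf1 probe differed by only 0.14 ± 0.11 (adjusted p = 0.748 with the block). For both genes the groups overlapped, and the highest LF_HF mouse for Fgf1, at 1109.6, was that of cage 14. Slc45a3, a sugar transporter, differed by 0.65 ± 0.14, Gde1, a phosphodiesterase of glycerol lipids, by 0.49 ± 0.10, and Caln1, a calcium-binding protein, by 0.46 ± 0.09 (adjusted p = 0.0347, 0.0298 and 0.026 with no cage term). Slc22a5 was measured by 2 probes that passed and Gde1 by 2. A further probe of each did not pass, at 0.19 ± 0.06 for Slc22a5 and 0.37 ± 0.09 for Gde1 (adjusted p = 0.219 and 0.0662 with no cage term).

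Most genes of fatty acid synthesis lay below 0 in HF_HF relative to LF_HF. Of 17 members measured (19 listed), 15 lay below 0 and 2 above, with a median of -0.24 beside -0.01 over all genes (-0.31 on cage means and -0.38 with the 3-week weight as a covariate). Aacs passed with the block, Elovl5 only with no cage term, and 9 had an unadjusted p under 0.05 on the lower side, 52.9% of the list beside 6.34% of all genes. Cage means of 5 members (29.4%, beside 2.74% of all genes) lay lower without overlap: Aacs, Acss2, Elovl5, Elovl6 and Slc25a1, the last a citrate carrier that differed by only -0.15 ± 0.07.

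Elovl5, which lengthens polyunsaturated fatty acids, had 5911, 8153 and 11527 in HF_HF against 9792, 11505 and 15328 in LF_HF, a difference of -0.58 ± 0.12 (adjusted p = 0.0347 with no cage term and 0.0667 with the block). Acly and Acss2, which make acetyl-CoA from citrate and from acetate, differed by -0.58 ± 0.14 and -0.63 ± 0.17 (adjusted p = 0.117 and 0.16). In HF_HF, Acly had 2267, 2925 and 5222, against 3083, 4486 and 5370.2 in LF_HF, and 1 HF_HF mouse of cage 20 lay near the top of both groups. Elovl6, which makes stearate from palmitate, differed by -0.50 ± 0.16, and Acaca, the carboxylase that commits acetyl-CoA to fatty acids, by -0.42 ± 0.11 (adjusted p = 0.3 and 0.182). These last 2 genes were chosen after their values were seen. Scd1, the desaturase that makes oleate, and Fasn, the fatty acid synthase, were likewise singled out afterwards: Scd1 differed by -0.24 ± 0.14 and Fasn, whose probe was dim, by -0.16 ± 0.08. Srebf1, the factor that drives this programme, differed by -0.12 ± 0.10 (adjusted p = 0.746).

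Genes of sterol synthesis all lay below 0, but none passed and the cages overlapped. The 15 members measured (20 listed) had a median of -0.26, and none passed at 5% with the cage term, without it or on cage means. In each of these fits at most 0.195% of all probes passed in either direction. The median was -0.16 on cage means and -0.09 with the 3-week weight as a covariate. An unadjusted p under 0.05 was met by 5 members on the lower side, 33.3% of the list beside 6.34% of all genes, and cage means separated for 0 of 15, beside 2.74% of all genes on the lower side. The members run from Hmgcs1, the synthase that opens the pathway, to Dhcr7, the reductase that ends it.

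Hmgcs1 had 2475, 4966 and 8157 in HF_HF and 3828, 8959 and 13898 in LF_HF, a difference of -0.65 ± 0.24 (adjusted p = 0.382). Its cage means were 7900.1, 3258, 7419 and 4534 in HF_HF cages 10, 20, 21 and 23, against 6523, 9307, 11594 and 3828 in LF_HF cages 4, 9, 11 and 14. Cages 10 and 21 of HF_HF thus lay above cages 4 and 14 of LF_HF, and the cages overlapped. In the middle of the pathway, Mvd differed by -0.47 ± 0.20, Idi1 by -0.25 ± 0.13, Fdps by -0.42 ± 0.13, Sqle by -0.40 ± 0.21 and Lss by -0.50 ± 0.16. Of the later enzymes, Cyp51 differed by -0.19 ± 0.14, Msmo1 by -0.36 ± 0.23, Nsdhl by -0.26 ± 0.17, Hsd17b7 by -0.23 ± 0.13, Sc5d by -0.24 ± 0.09 and Dhcr7 by -0.31 ± 0.15. The smallest differences were those of Tm7sf2 at -0.09 ± 0.14 and Ebp at -0.08 ± 0.07, and Pmvk differed by -0.22 ± 0.13. The adjusted p of the 15 members ran from 0.299 for Fdps to 0.885 for Tm7sf2.

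Sterol enzymes are classic targets of SREBP2, which binds a sterol regulatory element near the start of the gene. The core TCACNCCAC was searched on both strands of the RefSeq promoter windows of build GRCm38.p6, each of 250 bases before the start and 50 after. Counted by gene, it lay in a window of 388 of 27025 genes (1.44%), and in 1 of 13 sterol synthesis genes, 0 of 8 genes of SREBP control and 1 of 14 genes of fatty acid synthesis that have a window. The window of Hmgcs1 holds it, 137 bases before the start, and is shown since it was the only match among the sterol synthesis genes. It lies at chr13:119690101-119690400 on the plus strand, and the capitals mark the match.
Hmgcs1: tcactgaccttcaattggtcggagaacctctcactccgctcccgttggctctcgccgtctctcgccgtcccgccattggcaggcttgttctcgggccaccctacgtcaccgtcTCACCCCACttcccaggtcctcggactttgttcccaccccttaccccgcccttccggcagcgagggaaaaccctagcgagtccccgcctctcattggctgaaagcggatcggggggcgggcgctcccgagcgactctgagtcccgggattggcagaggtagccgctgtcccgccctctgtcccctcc
A match of letters is a description and not a binding site. Of the clock genes measured, 3 of 12 with a window hold the E-box CACGTG, beside 8.09% of all genes. None of these 3 is Nr1d1, Nfil3, Dbp or Per3, which are described below, and Nampt was not checked.

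Among genes of SREBP control and sterol transport, 5 of 10 measured lay above 0 and 5 below, with a median of -0.01. Stard4, which carries cholesterol between membranes and is itself a target of SREBP2, had 699.7, 930.2 and 1120.3 in HF_HF against 1028, 1188 and 1492 in LF_HF, a difference of -0.42 ± 0.10 (adjusted p = 0.0505 with no cage term and 0.087 with the block), and its cage means did not overlap. Insig1, an anchor that holds SREBP back, differed by -0.27 ± 0.15, Srebf2 itself by 0.05 ± 0.10, and Abcg5, a sterol exporter into bile, by 0.24 ± 0.11. The other Insig1 probes disagreed in sign, at 0.07 ± 0.14 and -0.42 ± 0.15. None of these passed.

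**Figure D2:**
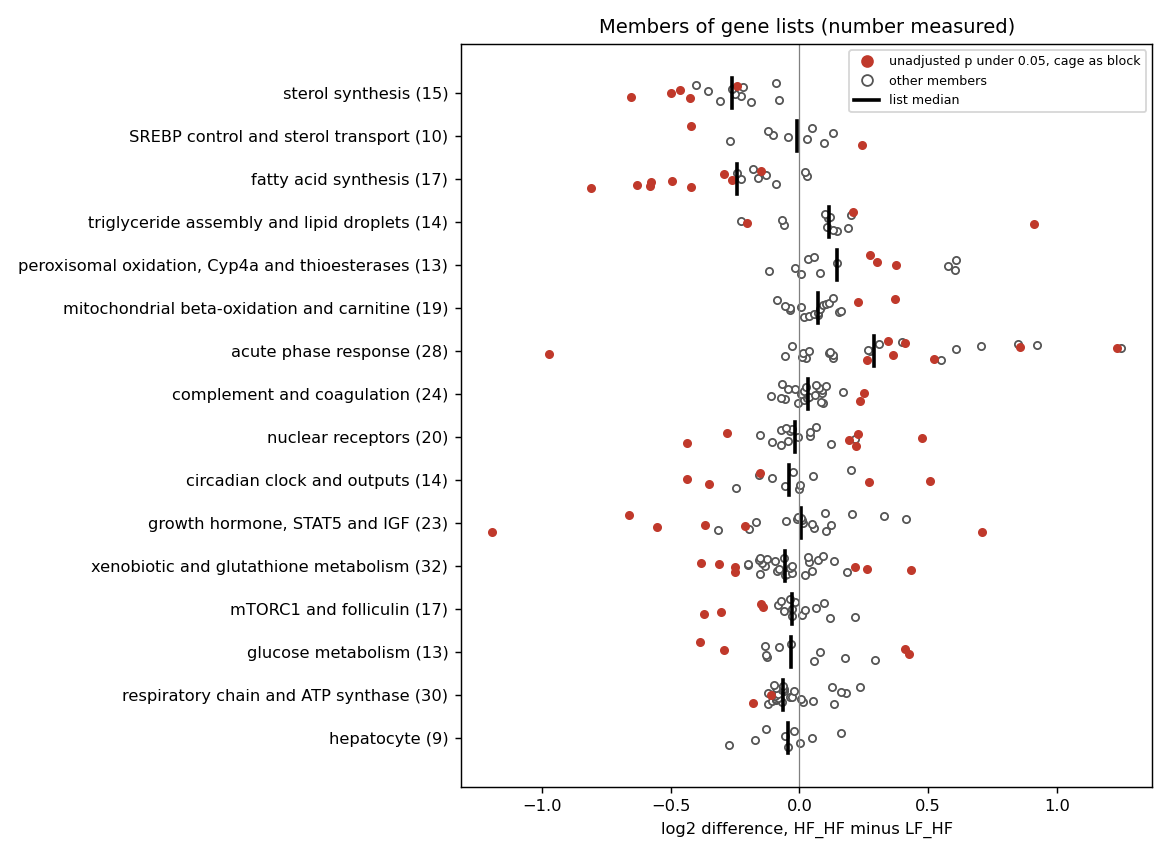
Log2 difference between HF_HF and LF_HF for each measured member of 16 gene lists, with filled points for an unadjusted p under 0.05 with the cage as a block and a bar at each list's median. All 15 sterol synthesis genes and 15 of 17 genes of fatty acid synthesis lie left of 0, and 25 of 28 acute phase genes lie right of it.

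Most genes of fatty acid oxidation lay above 0 by small amounts. In peroxisomal oxidation, with the Cyp4a hydroxylases and thioesterases, 11 of 13 members lay above 0 (median 0.14), and in mitochondrial oxidation 15 of 19 (median 0.07). On cage means these medians were 0.09 and 0.02, and with 1 cage left out the mitochondrial one lay between 0.03 and 0.11. Crat, which moves acetyl groups onto carnitine, differed by 0.30 ± 0.11, Pex11a, which divides peroxisomes, by 0.27 ± 0.13, and Acot4, a thioesterase, by 0.37 ± 0.18 (adjusted p = 0.351, 0.534 and 0.545). Ppara, the receptor that drives both programmes, had 157, 183 and 226 in HF_HF against 118, 161 and 185 in LF_HF, a difference of 0.23 ± 0.10 (adjusted p = 0.464). Slc22a5, given above, was the one gene of mitochondrial oxidation that passed with no cage term. No cage means separated for either list, beside 1.08% of all genes on the higher side and 2.74% on the lower. At such shares lists of this size seldom hold any.

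By cage, the sterol synthesis and peroxisomal lists lay opposite to each other. The mean log2 deviation of the sterol list from its LF_HF mean was 0.11, -0.62, -0.13 and -0.36 in HF_HF cages 10, 20, 21 and 23, against -0.25, 0.13, 0.24 and -0.37 in LF_HF cages 4, 9, 11 and 14. For the peroxisomal list it was -0.22, 0.34, 0.18 and 0.37 in the same HF_HF cages, against 0.28, -0.19, -0.30 and 0.61 in the LF_HF cages. Cage 10 of HF_HF with cages 9 and 11 of LF_HF was thus high in the sterol list and low in the peroxisomal one, and the other 5 cages were the reverse. This split crosses the dam's diet, and it was described after the values were seen. Fatty acid synthesis did not follow it, at -0.66, -0.12, -0.39 and -0.28 in HF_HF, against 0.07, -0.0029, -0.02 and -0.10 in LF_HF, where the cage means of the list did not overlap.

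**Figure D3:**
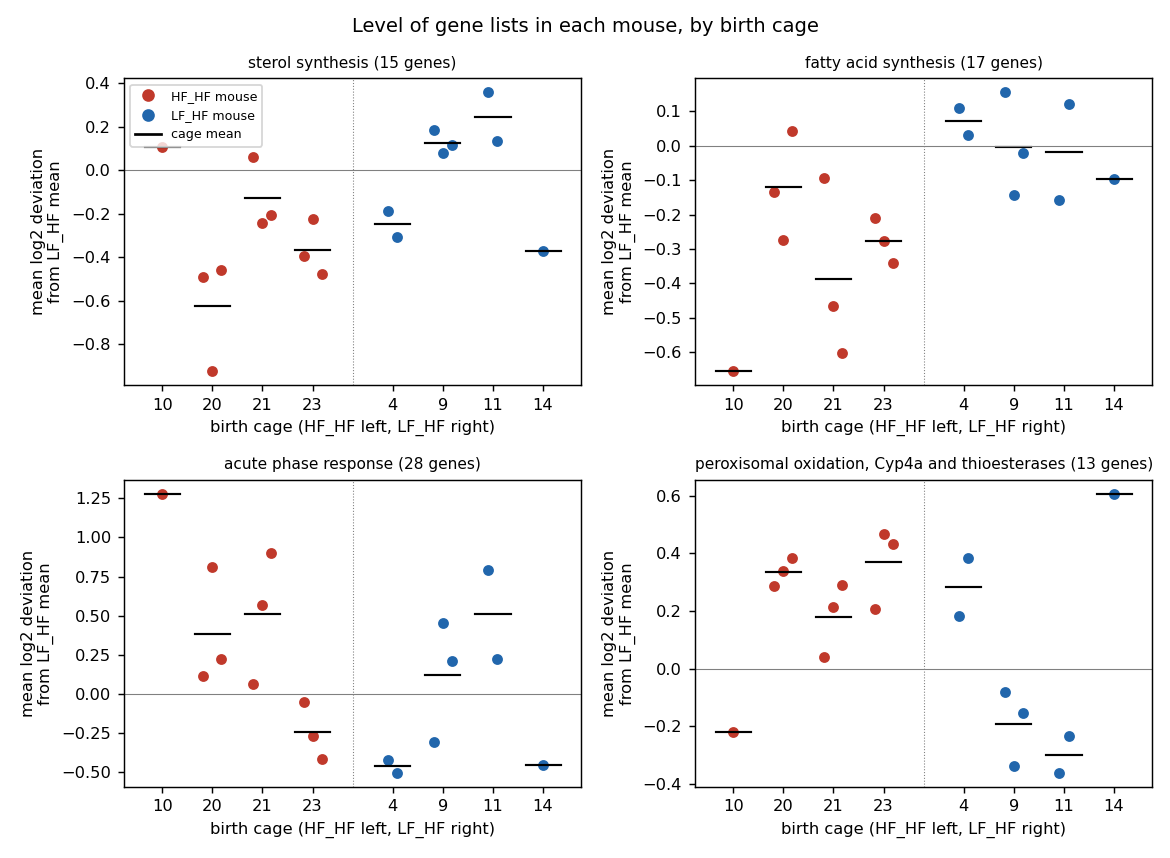
Mean log2 deviation from the LF_HF mean over the measured genes of 4 lists, with 1 point per mouse, birth cages along the horizontal axis (the HF_HF cages left of the LF_HF cages) and a bar at each cage's mean. Sterol synthesis in cage 14 of LF_HF (-0.37) lies level with cage 23 of HF_HF (-0.36), and the acute phase list is highest in the single mouse of cage 10 (1.28).

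Triglyceride genes were mixed, with 10 of 14 above 0 and a median of 0.12 (0.07 with the 3-week weight as a covariate). G0s2, an inhibitor of the lipase Pnpla2, had 887, 1829.6 and 2518 in HF_HF against 372, 894 and 2468 in LF_HF, a difference of 0.91 ± 0.30 (adjusted p = 0.332), and the groups overlapped widely. Pnpla2 itself differed by 0.21 ± 0.09, and Gpam, which adds the first fatty acid to glycerol phosphate, by -0.20 ± 0.08 (adjusted p = 0.503 and 0.391).

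Of 20 nuclear receptors measured, 9 lay above 0 and 11 below, and 1, Nr1d1, passed with no cage term. Nr1d1 encodes REV-ERB alpha, a repressor of the circadian clock. It had 179, 208 and 239.9 in HF_HF against 217, 279 and 341 in LF_HF, so that the groups overlapped, and differed by -0.44 ± 0.09 (adjusted p = 0.0347 with no cage term and 0.0824 with the block). A second Nr1d1 probe also passed with no cage term, at -0.37 ± 0.07, and its cage means did not overlap. Nr1i3, the xenobiotic receptor CAR, had 524, 643 and 752 in HF_HF against 352, 443 and 721 in LF_HF, a difference of 0.48 ± 0.12 (adjusted p = 0.117 with the block). The mouse of cage 14 stood apart among LF_HF for this gene, at 721 where the next was 492, and without it the difference was 0.58 ± 0.09 (adjusted p = 0.00534). Leaving out the LF_HF mouse highest for Nr1i3 widens this difference by construction. Nr1h4, the bile acid receptor FXR, differed by 0.19 ± 0.06, Nr1i2, the xenobiotic receptor PXR, by 0.22 ± 0.11, and Pparg by -0.28 ± 0.10 (adjusted p = 0.332, 0.568 and 0.36).

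Of the clock, 14 members were measured, with 5 above 0, 9 below and a median of -0.04. Nfil3, a repressor that Nr1d1 holds down and that opposes Dbp, had 469.6, 601 and 798 in HF_HF against 331, 414 and 534 in LF_HF, a difference of 0.51 ± 0.10 (adjusted p = 0.0299 with no cage term and 0.062 with the block). Dbp, an activator of clock output genes, lay the other way, at 2855, 3604 and 4256 in HF_HF against 3209.7, 4623 and 5754 in LF_HF, a difference of -0.35 ± 0.10 (adjusted p = 0.246), and its cage means did not overlap. Per3, a core repressor, differed by -0.15 ± 0.06, while Nampt, an enzyme of NAD synthesis chosen after its values were seen, differed by 0.27 ± 0.12. The time of day of each dissection is not given in the sources used here, so its part was not tested.

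Growth hormone targets were split, with 12 of 23 above 0 and 11 below. Beside Cish, Socs2, another STAT5 target chosen after its values were seen, had 197, 434 and 1035 in HF_HF and 403, 791 and 1227 in LF_HF, a difference of -0.66 ± 0.28 (adjusted p = 0.465) with cage means that did not overlap. Elovl3, an elongase more abundant in males, differed by -0.55 ± 0.14, Hsd3b5, a steroid dehydrogenase of male liver, by -0.36 ± 0.14, and Bcl6, a repressor that STAT5 holds down, by 0.71 ± 0.29 (adjusted p = 0.144, 0.382 and 0.448).

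The list of mTORC1 and folliculin genes was not shifted as a whole (6 of 17 above 0, 11 below, median -0.03), but Flcn and its partner were both low. Fnip1 had 725, 814 and 1042 in HF_HF against 978, 1032 and 1171 in LF_HF, a difference of -0.31 ± 0.07 (adjusted p = 0.0725 with no cage term and 0.124 with the block). Its cage means did not overlap, at 879, 761, 805 and 950.4 in HF_HF against 1108, 1009, 997 and 1065 in LF_HF. A second Fnip1 probe differed by -0.24 ± 0.08 (adjusted p = 0.351 with the block). With the 3-week weight as a covariate, Fnip1 differed by -0.13 ± 0.10 (adjusted p = 0.935). The list was chosen with earlier results known and Fnip1 was named for its low p, so the pair is no separate support. Rheb, the small GTPase that activates mTORC1, differed by -0.14 ± 0.06, and Sesn1, an inhibitor of it, by -0.15 ± 0.07 (adjusted p = 0.492 and 0.512).

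Acute phase genes, whose products the liver secretes in inflammation, lay mostly above 0 (25 of 28, median 0.29), with wide spreads. None was past 5% with or without the cage term, where at most 0.195% of all probes passed in either direction. Cfb, complement factor B, had 773, 1404 and 2025 in HF_HF against 790.5, 882 and 1372 in LF_HF, a difference of 0.52 ± 0.16, and Hamp, the iron hormone hepcidin, had 7505, 12211 and 14810 in HF_HF against 6783, 9310.4 and 10170 in LF_HF, a difference of 0.37 ± 0.13 (adjusted p = 0.257 and 0.36). Its paralogue Hamp2 went the other way, at -0.97 ± 0.32 (adjusted p = 0.332), and the near-identical Hamp and Hamp2 may share signal on these probes. Cebpb, a factor that drives the response, differed by 0.26 ± 0.09. The single mouse of cage 10 had the highest list level of all, 1.28 above the LF_HF mean, and the highest of the neutrophil list (1.203, beside at most 0.54 in LF_HF). Only 3 neutrophil genes were measured, S100a8, S100a9 and Elane, and Elane lay between 64.7 and 80.7 in all 18 mice. Ngp, Camp and Retnlg were too dim to be kept, so the level does not describe neutrophil markers at large. The macrophage list level of the cage 10 mouse was 0.60, beside 0.71 in the highest LF_HF mouse. Without cage 10 the acute phase median was 0.22 and the macrophage median 0.04, beside 0.10 with it. Over all cages left out in turn, the acute phase median lay between 0.19 and 0.46 and the macrophage median between -0.10 and 0.29. For the macrophage list, 9 of 10 members lay above 0 (summed intensity 3826 to 7760.3 in HF_HF mice, against 2099.8 to 8394 in LF_HF mice), and its part in the acute phase values was not tested.

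Cd163, a scavenger receptor of macrophages, had 177, 235 and 276 in HF_HF against 130.3, 171 and 217 in LF_HF, a difference of 0.41 ± 0.11 (adjusted p = 0.18) with cage means that did not overlap. Clec4f, the marker of Kupffer cells, differed by 0.12 ± 0.12. Fewer cells of a type and less RNA per cell cannot be told apart in whole liver. Markers of lymphocytes, cholangiocytes, adipocytes and skeletal muscle had group medians between 56.0 and 106, near the median of all values on the arrays, 71.5. Single mice stood out for Cela2a, an elastase of the pancreas (up to 1730.1 where the medians were 123 in HF_HF and 109.5 in LF_HF), and for Acta1, the actin of skeletal muscle (up to 972 where both medians were 57.3).

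Among genes of xenobiotic and glutathione metabolism, 11 of 32 lay above 0 and 21 below. Gsta1, a glutathione transferase, and Cyp2c55, a cytochrome P450, differed by -0.25 ± 0.06 and -0.25 ± 0.06 with cage means that did not overlap, but their probes were dim, with HF_HF medians of 65.1 and 62.1. Cyp3a25 and Cyp3a13, cytochromes of the family that CAR and PXR control, differed by 0.26 ± 0.09 and 0.43 ± 0.15 (adjusted p = 0.343 and 0.351), and other members of this multigene family may share signal with these probes.

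Glucose metabolism had 6 of 13 members above 0 and 7 below. Ugp2, which makes the precursor of glycogen, had 513, 811 and 979 in HF_HF against 822, 1009 and 1124 in LF_HF, a difference of -0.39 ± 0.11 (adjusted p = 0.187). Pklr, the liver pyruvate kinase, differed by -0.29 ± 0.14, and Pck1, a key enzyme of glucose production, by 0.43 ± 0.20 (adjusted p = 0.545 and 0.545). Of the insulin cascade, Irs2 differed by -0.20 ± 0.08 and Irs1 by 0.23 ± 0.18. The bile salt export pump Abcb11 had 720.2, 891 and 1037 in HF_HF against 980.4, 1058 and 1306 in LF_HF, a difference of -0.31 ± 0.08 (adjusted p = 0.163), and prothrombin, F2, and the cholesterol esterifying enzyme Lcat lay higher, at 0.25 ± 0.07 and 0.23 ± 0.07 (adjusted p = 0.19 and 0.288). For Abcb11, F2 and Lcat the cage means did not overlap.

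Among the lists that follow, the red cell markers had the median furthest from 0. The median was -0.07 for the respiratory chain and ATP synthase (8 of 30 above 0), 0.02 for ribosomal proteins, -0.03 for the proteasome, -0.02 for the cell cycle, -0.01 for imprinted growth genes and -0.01 for the DNA methylation machinery. No member of these lists passed with or without the cage term, but at most 0.195% of all probes passed in either direction. Lists of this size would mostly hold none at that share. Hepatocyte markers had a median of -0.04, and those of periportal and pericentral hepatocytes -0.07 and -0.05. The 3 red cell markers measured all lay below 0 (median -0.16), with cage levels of -0.24, -0.27, -0.11 and 0.05 in HF_HF cages 10, 20, 21 and 23, against 0.0023, -0.0073, 0.15 and -0.29 in LF_HF cages 4, 9, 11 and 14, which overlapped. Immediate early and heat shock genes had a median of -0.09 and markers of stellate cells and fibroblasts one of -0.09.

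The same dam diets were then compared in the mice fed LF after weaning (9 HF_LF against 9 LF_LF). These are other animals, but 3 birth cages are shared by HF_HF and HF_LF and 2 by LF_HF and LF_LF. Of the 27 genes past 5% with no cage term on HF, 18 had the same sign on LF and 9 the opposite, and all 27 were smaller there, as genes chosen for their size on HF tend to be. Tuft1 differed by -0.35 ± 0.10 on LF (unadjusted p = 0.00224, adjusted p = 0.597), Aqp8 by -0.42 ± 0.20 and Caln1 by 0.25 ± 0.08. Aacs differed by -0.12 ± 0.13 on LF, Flcn by -0.04 ± 0.10, Chrna4 by 0.13 ± 0.23, Cish by 0.13 ± 0.37 and Elovl5 by 0.15 ± 0.14. The difference between the maternal effects on the 2 pup diets was tested over all probes and none passed (0%, limma with the cage as a block), with 774 at an unadjusted p under 0.05. Elovl5 had the smallest such p of these 27 genes (3.71e-04, adjusted p = 0.441). The sterol synthesis list had a median of -0.01 on LF and the fatty acid synthesis list one of 0.06.

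**Figure D4:**
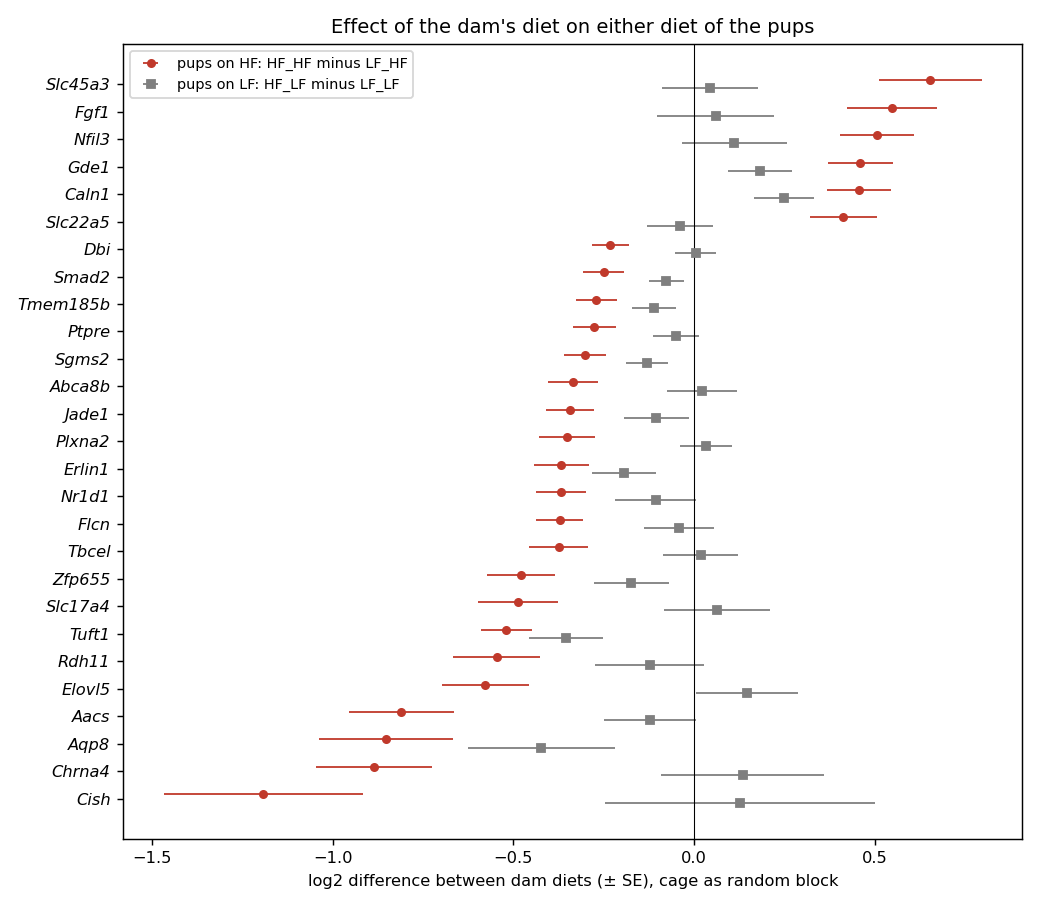
Log2 difference between dam diets ± SE for the 27 genes past 5% with no cage term, in pups on HF (HF_HF minus LF_HF, circles) and in pups on LF (HF_LF minus LF_LF, squares), each fitted with the cage as a random block, for the probe of each gene with the lowest p on HF. Tuft1 lies below 0 on both diets (-0.52 and -0.35), while Chrna4, Cish and Elovl5 lie below 0 in pups on HF and above 0 in pups on LF.

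The mouse of cage 14 bore on many of these values. For the 33 probes past 5% with no cage term, it was the LF_HF mouse nearest to HF_HF for 25, and 5 other LF_HF mice shared the remaining 8. It was singled out by its nearness to HF_HF in these same data, so leaving it out tends to raise such counts by construction. The fit without it is therefore a description and no support for the genes. With this mouse left out, 44 probes passed with the cage as a block, 25 lower and 19 higher, and 28 of them were among the 33. Genes that joined, chosen here after their values were seen, included Acly at -0.66 ± 0.14, Acaca at -0.49 ± 0.11, Stard4 at -0.45 ± 0.10, Nr1i3 at 0.58 ± 0.09 and Slc2a1, a glucose transporter, at 0.37 ± 0.07 (adjusted p = 0.0292, 0.0410, 0.0486, 0.00534 and 0.0137). By its labels this mouse was the only one of its cage here and lay at the low end of LF_HF in several body measures. Its length of 99 mm was the lowest of the group and its glucose of 187 mg/dl equalled the lowest. Its later weight of 27.35 g lay near the lowest, 27.2 g. Whether this bears on its expression values was not tested.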

How the data were processed

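Liver RNA of each mouse was hybridised to 1 Illumina MouseRef-8 bead array. The deposited values are intensities on a linear scale, which the authors had quantile-normalised over all arrays, with BeadStudio named in the submitters' processing notes. No background had been subtracted (values 45.7 to 32949.1). Since this gives every array 1 distribution, a shift of all genes cannot be seen. Of 25697 probes, the 12289 whose median over 36 arrays reached the median of the whole table (71.5) were kept and put on the log2 scale. HF_HF was compared with LF_HF in limma 3.58.1 (R 4.3.3) with a mean-variance trend and the birth cage as a random block (statmod 1.5.0), with Benjamini-Hochberg adjustment over all kept probes. The study's own pairwise comparison had no cage term, and that form was an alternative, as were cage means, other filters and scalings, a weight covariate and fits without each mouse or cage. Body measures and cage means of single genes were compared by two-sided exact permutation (scipy 1.17.1). The code was tested on simulated data. A gene is represented by its brightest kept probe, unless only another of its probes passed. Genes named are those past 5% in the fit with the cage, up to 10 in each direction without it, up to 4 members of a list with the lowest p, all of sterol synthesis and 7 regulators, and others are said to be chosen after their values were seen. The members and lists were chosen with earlier results of these data known. Symbols came from the platform annotation and promoter windows from RefSeq.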

Additional observations from a re-analysis of the deposited data

Results flagged for a closer look

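In 174 groups of values (82 genes named in the text and 5 body measures, each in HF_HF and in LF_HF), 7 values of single mice, all of genes, stood apart from the rest of their group by Dixon's test, and chance alone marks about 1 in 20 groups. In HF_HF, Acly was 5222.2 in replicate 7 of cage 20, where the next mouse had 3155.8. In LF_HF, Nr1i3 was 721.3 in replicate 1 of cage 14, where the next had 491.6. Srebf1 was 537.1 in LF_HF replicate 2 of cage 4 (next 393.3), and Fnip1 was 1170.8 in the same mouse (next 1064.6). Cfb was 1372.5 in LF_HF replicate 7 of cage 11 (next 1018.5), and Fasn was 115.1 in LF_HF replicate 8 of the same cage (next 92.5). Srebf2 was the one gene with a mouse apart at the low end, at 143.0 in LF_HF replicate 4 of cage 9 (next 166.7).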

How the results depend on the processing

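The number of probes past 5%, 4 with the cage as a random block, depended on the fit. It was 33 with no cage term, 0 on 1 mean per cage, 21 with no filter on dim probes, 2 with the stricter filter, 11 with background subtracted, 7 after cyclic loess, 13 without the trend, 30 with all 36 mice in 1 fit, 50 with array weights and 0 with the 3-week weight as a covariate. A variance taken from the expression level and not from the gene's own spread, with no cage term, gave 688. Without each mouse or cage in turn it lay between 0 and 44. The highest came without LF_HF replicate 1 (cage 14), the mouse nearest to HF_HF for most of the 33 probes, and the lowest without cage 9. Probes whose cage means did not overlap numbered 457, and 1750 without cages 10 and 14. The difference in weight at 3 weeks was 2.33 g on cage means, where its adjusted p no longer passed. For the 82 genes named, no call reversed in 3025 pairs of gene and setting, 60 lost the threshold and 173 gained it, and 8 pairs in 5 genes had the opposite sign with no call in either fit. The causes were not tested. No paired analysis was possible because the labels give the mice no replicate numbers shared between groups. Each value rests on 10 and 8 mice from 4 cages a group, and on dim probes a difference is compressed by the background.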
